A study of Homo sapiens with 15 samples.

Results

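The genes described here encode integrins, the receptors by which cells hold on to the matrix around them, and laminins, sheet-forming proteins of that matrix, in senescent human cells that carried a short hairpin RNA against THBD. The members were chosen by name: every gene, in both deposited count tables, whose symbol is ITGA, ITGB, LAMA, LAMB or LAMC followed by the number or letter of a chain. There are 38 of them, among 59428 genes in the IMR90 table and 59412 in the Huh7 table. They comprise 18 integrin alpha chains, 8 integrin beta chains and 12 laminin chains, of which 5 are alpha, 4 beta and 3 gamma chains.

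The study asked whether senescence can be established without THBD, the gene of thrombomodulin, a membrane protein that binds thrombin. IMR90, a line of human lung fibroblasts, carried HRAS G12V as the inducer of senescence, per the treatment label; the growth protocol also mentions replicative senescence. In this line 3 control libraries with a non-targeting hairpin were set against 6 shTHBD libraries, which the titles divide into set 1 and set 2 (3 each). Huh7, a line from a hepatocyte-derived carcinoma, was made senescent with palbociclib, an inhibitor of the kinases CDK4 and CDK6, and carried either the non-targeting hairpin (3 libraries) or shTHBD (3 libraries). All 5 groups were thus labelled senescent and all carried a hairpin; cells without either were not analysed here. The labels do not say what the set number stands for, whether the cells were clones, or whether replicates were separate cultures, so a p-value here reflects the spread among these libraries alone, which may be technical. The description of set 2 replicate 3 names Huh7, whereas its line, tissue and treatment labels name IMR-90. Its counts were 716 for LAMA1 and 0 for ITGB6. The other IMR90 libraries had 469 to 812 and at most 3, and the Huh7 libraries at most 1 and 905 to 1428. By these counts it resembled IMR90, and it stayed in the IMR90 fit. Leaving it out gave 26 called of 29 tested members in set 2 instead of 25 of 28.

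THBD itself was at 16.5, 18.8 and 20 CPM (the count scaled to a common library total) in the IMR90 control, 39.4, 36.6 and 37.3 in libraries labelled set 1, and 10.5, 11.5 and 11.4 in set 2. It was therefore higher than control in libraries labelled set 1 (log2 change of 1.09 ± 0.0764) and lower in set 2 (−0.81 ± 0.0905), so a direction in libraries labelled set 1 does not follow a fall of THBD. In Huh7 it had 0, 0 and 6 counts in the control and 0 in each shTHBD library, which allows up to 3 counts or 0.119 to 0.133 CPM, so a fall was not detectable there. Library totals lay between 18256773 and 21509229 counts in IMR90, 19328182 and 20020683 in control Huh7, and 22479132 and 25236178 in Huh7 shTHBD. Of 12 fibroblast markers, 11 had a mean of at least 1 CPM in each IMR90 group. Their summed level was 6848 to 6925 CPM in the control, 5053 to 5143 in libraries labelled set 1 and 13173 to 13358 in set 2. COL1A1 led the sum in set 2, with a mean of 4397 CPM. Of 11 tested, 2 were higher and 8 lower in libraries labelled set 1 (27.3% and 26.5% of all genes). In set 2, 7 were higher and 4 lower (33.2% and 34.1% of all genes). The same 12 genes summed to 1146 to 1201 CPM in the Huh7 control and 1811 to 1858 in Huh7 shTHBD. All 11 hepatocyte markers had at least 1 CPM in both Huh7 groups, with sums of 7143 to 7394 CPM in the control and 5006 to 5193 in shTHBD. These sums moved with the groups compared, and their part in the results below was not tested. In bulk RNA, fewer cells of a kind and less RNA per cell cannot be told apart.

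Each integrin is a pair of an alpha and a beta chain that spans the membrane, and the pairing sets what it binds. ITGB1 is the shared beta chain of many pairs: with ITGA1, ITGA2, ITGA10 or ITGA11 it binds collagens, with ITGA3, ITGA6 or ITGA7 laminins, and with ITGA5 fibronectin. ITGAV joins several beta chains in receptors for the RGD motif of matrix proteins, and the pairs with ITGB6 and ITGB8 can activate latent TGF-beta. A laminin is a trimer of an alpha, a beta and a gamma chain; LAMB1 and LAMC1 take part in most trimers, and LAMA3 and LAMB3 belong to the laminin of epithelial anchoring structures. The measurements below are of messenger RNA and say nothing of which pairs or trimers were assembled.

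Most tested members differed between groups in IMR90, where most genes of any kind also did. A gene was called when its adjusted p in edgeR's quasi-likelihood test was under 0.05; errors of log2 fold changes are approximate standard errors. Of 28 members tested in IMR90, 10 were higher and 12 lower in libraries labelled set 1 than in the control, against 53.8% of all 15411 genes called (27.3% higher and 26.5% lower). Of these, 3 were higher and 4 lower by at least 2-fold, against 3.79% and 4.33% of all genes (8.12% in either direction). ITGB2 and LAMB4, with means under 1 CPM in both groups, were among these members. In a fit of only the control and the libraries labelled set 1, 26 members were tested and 5 called members reached 2-fold. In set 2, 10 members were higher and 15 lower, against 67.3% of all genes called (33.2% higher and 34.1% lower). By at least 2-fold, 3 were higher and 5 lower, against 7.96% and 9.80% of all genes. Between the sets themselves, 12 members were higher in libraries labelled set 1 and 13 in set 2, against 69.5% of all genes; here 5 and 5 reached 2-fold, against 10.8% and 10.3% of all genes. In Huh7, 9 of 28 tested members were higher and 7 lower with shTHBD, against 53.1% of all 17474 genes called; 2 were higher and 1 lower by at least 2-fold, against 5.27% and 8.37% of all genes. The median log2 fold change of the tested members was −0.12 in libraries labelled set 1, −0.23 in set 2 and 0.07 in Huh7, beside −0.00, 0.01 and 0.00 over all genes.

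In IMR90 the members too low to test were ITGA2B, ITGA8, ITGA9, ITGAD, ITGAL, ITGAM, ITGB4, ITGB6, ITGB7 and LAMC3. In Huh7 these were ITGA4, ITGA8, ITGA11, ITGAD, ITGAM, ITGAX, ITGB2, ITGB7, LAMA1 and LAMC3. The 28 tested members in each line passed a filter on low counts. ITGB2 and LAMB4 in IMR90 passed only with the groups where they are high, and others may have. ITGA2B, ITGA8, ITGAD, ITGAM and ITGB7 stayed at 0.996 CPM or less in all 15 libraries, and LAMC3 at 1.37 CPM or less.

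**Figure D1:**
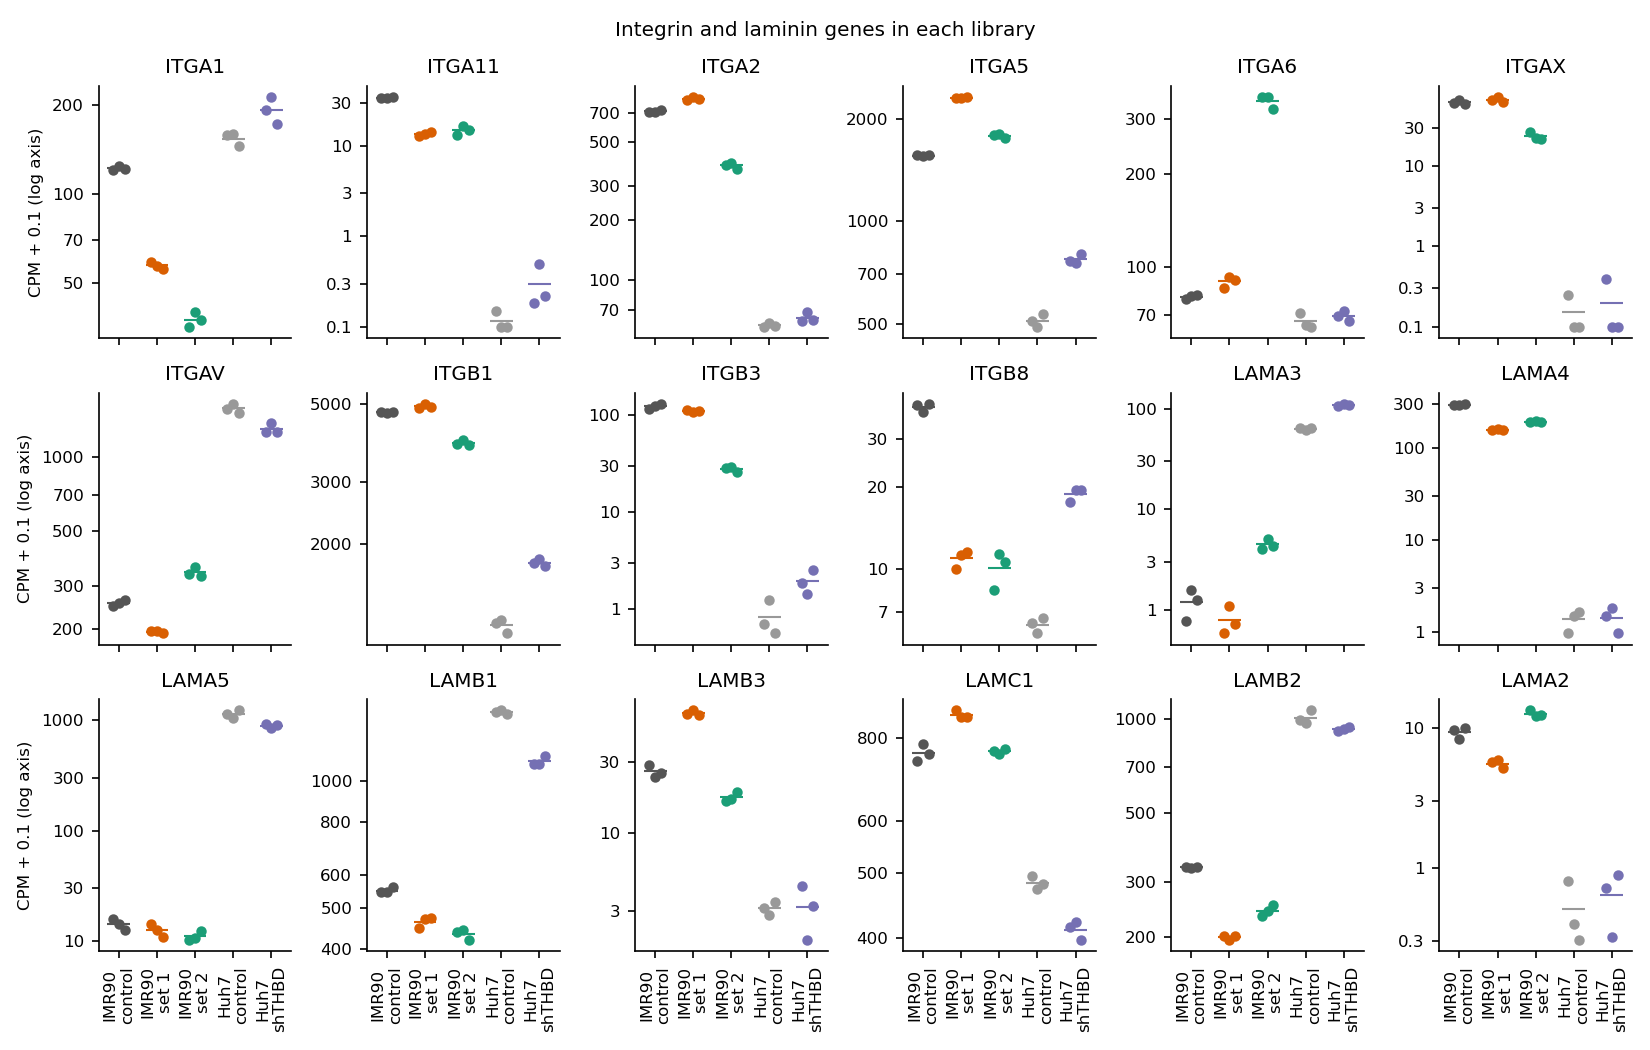
CPM + 0.1 (log axis) of 18 integrin and laminin genes in each library, by group, with the mean of each group as a line; "set 1" stands for libraries labelled set 1. ITGA6 stands at 324 to 352 CPM in IMR90 set 2 and at 92.7 CPM or less in the other libraries, while ITGB8 is lower than control in both IMR90 sets and higher than control in Huh7 shTHBD.

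Among the beta chains, ITGB1, ITGB3 and ITGB8 were lower in set 2 and higher in Huh7 shTHBD, each against the control of its line. ITGB1 (chr10:32887273-33005792, GRCh38), the common partner, was at 4745, 4696 and 4741 CPM in the IMR90 control, 4874, 4989 and 4904 in libraries labelled set 1, and 3841, 3934 and 3813 in set 2. These groups did not overlap. It was slightly higher in libraries labelled set 1 (0.11 ± 0.0158, adjusted p = 4.7e-09) and 1.3-fold lower in set 2 (−0.37 ± 0.0159, adjusted p = 5.3e-33). In Huh7, ITGB1 was at 1196, 1218 and 1115 CPM in the control and 1766, 1809 and 1725 with shTHBD, 1.47-fold higher (0.56 ± 0.0521, adjusted p = 6.1e-11).

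ITGB3 (chr17:47253827-47313743), the beta chain of the vitronectin receptor and, with ITGA2B, of the platelet fibrinogen receptor, was at 116, 125 and 130 CPM in the IMR90 control and 28.1, 29.4 and 25.9 in set 2. Set 2 was 4.71-fold lower, with no overlap (−2.24 ± 0.0497, adjusted p = 4.1e-50). Of 4 platelet markers, 2 had at least 1 CPM in the control and 1 in set 2, with sums of 5.35 to 6.79 and 1.91 to 2.93 CPM and GP9 at 0 in both groups; their part in the fall of ITGB3 was not tested. Libraries labelled set 1 held 113, 107 and 110 CPM, only just below the control (−0.12 ± 0.041, adjusted p = 0.0125), and the call was lost with DESeq2 (adjusted p = 0.0626) and without control replicate 2 or 3 or set 1 replicate 2 (adjusted p = 0.0529, 0.136 and 0.0798). In Huh7, ITGB3 was close to 1 CPM: 12, 23 and 9 counts in the control and 43, 30 and 61 with shTHBD. That difference was 2.42-fold (1.28 ± 0.43, adjusted p = 0.0125) and lost its call without control replicate 1 or 3 or shTHBD replicate 2 (adjusted p = 0.0504, 0.0724 and 0.0741). Of the exonic bases of ITGB3, 35.7% overlap another gene of the annotation, and the header of the IMR90 table records no option to count reads that overlap more than 1 gene.

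ITGB8 (chr7:20330702-20415754), whose pair with ITGAV holds latent TGF-beta, was at 39.9, 37.5 and 40.2 CPM in the IMR90 control, 9.97, 11.2 and 11.5 in libraries labelled set 1, and 8.32, 11.3 and 10.5 in set 2. Both sets lay far below the control and overlapped each other. Libraries labelled set 1 were 3.45-fold lower (−1.79 ± 0.0867, adjusted p = 3.8e-29) and set 2 was 4.13-fold lower (−2.05 ± 0.0883, adjusted p = 1.4e-32); these comparisons share their control libraries. Between the sets the difference was 0.26 ± 0.104 (adjusted p = 0.023), a call that was lost under upper-quartile scaling (adjusted p = 0.165) and without set 1 replicate 2 or 3 or set 2 replicate 1 (adjusted p = 0.0551, 0.0899 and 0.266). In Huh7, ITGB8 went the other way, from 6.25, 5.74 and 6.52 CPM in the control to 17.6, 19.4 and 19.4 with shTHBD, 2.99-fold higher (1.58 ± 0.136, adjusted p = 9.3e-12).

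ITGB5, a partner of ITGAV in a vitronectin receptor, fell from 322 ± 10.3 CPM (SD, n = 3) in the IMR90 control to 205 ± 1.65 in libraries labelled set 1 and 235 ± 5.22 in set 2 (−0.59 and −0.54, adjusted p = 3.0e-29 and 1.1e-27). In Huh7 it was at 275 ± 16.5 and 270 ± 10.1 CPM, and the difference did not pass the test (−0.05 ± 0.0561, adjusted p = 0.432). ITGB6, an epithelial partner of ITGAV, was at 46.9 ± 1.16 CPM in the Huh7 control and 55.3 ± 1.2 with shTHBD (0.21 ± 0.0759, adjusted p = 0.0191), a call lost without control replicate 1 or 2 (adjusted p = 0.0708 and 0.0712) and when no genes were filtered out (0.0584). ITGB6 had at most 3 counts in any IMR90 library. ITGB4, the partner of ITGA6 in epithelial hemidesmosomes, had at most 11 counts in any IMR90 library and was at 3.59 ± 0.354 and 3.41 ± 0.909 CPM in Huh7, where the difference did not pass the test (adjusted p = 0.754).

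Among the collagen-binding alpha chains, ITGA1 and ITGA11 fell in both IMR90 sets, while ITGA2 rose in one and fell in the other. ITGA1 (chr5:52787916-52959209), a receptor chain for basement membrane collagen among others, was at 121, 124 and 122 CPM in the control, 59, 57.3 and 56 in libraries labelled set 1, and 35.6, 39.8 and 37.6 in set 2. The groups stood in steps with no overlap, 2.05-fold below control in libraries labelled set 1 (−1.04 ± 0.0441, adjusted p = 2.3e-32) and 3.43-fold below it in set 2 (−1.78 ± 0.047, adjusted p = 2.0e-45). The sets differed by 0.74 ± 0.0509 (adjusted p = 9.6e-22). In Huh7, ITGA1 was at 158, 159 and 145 CPM in the control and 192, 212 and 172 with shTHBD, higher by 0.29 ± 0.0704 (adjusted p = 6.8e-04). PELO and 3 other annotated genes share 13.2% of the exonic bases of ITGA1.

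ITGA2 (chr5:52989340-53094779) starts 30.1 kb beyond the end of ITGA1 on the same strand. It was at 709, 710 and 723 CPM in the IMR90 control, 814, 840 and 824 in libraries labelled set 1, and 384, 392 and 366 in set 2. It was thus 1.2-fold higher in libraries labelled set 1 (0.27 ± 0.0227, adjusted p = 1.2e-16) and 1.99-fold lower in set 2 (−0.99 ± 0.0237, adjusted p = 4.1e-48), so in libraries labelled set 1 the neighbours moved in opposite directions. The sets differed 2.39-fold (1.25 ± 0.0236, adjusted p = 9.8e-55). In Huh7, ITGA2 was at 57.7, 60 and 58.3 CPM and at 61.5, 68.7 and 62.4, and the difference did not pass the test (0.10 ± 0.0755, adjusted p = 0.267).

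ITGA11 (chr15:68296532-68432163), a collagen receptor chain of fibroblasts, was at 34, 34 and 34.3 CPM in the IMR90 control, 12.7, 13.6 and 14 in libraries labelled set 1, and 13.2, 16.4 and 14.9 in set 2. Each set was 2.44-fold lower than the control (−1.29 ± 0.0818 and −1.28 ± 0.0811, adjusted p = 8.6e-23 and 1.9e-23). The difference between the sets did not pass the test (−0.00 ± 0.0914, adjusted p = 0.988). Huh7 held at most 9 counts of ITGA11 in a library. ITGA10, a collagen receptor chain of cartilage, stayed under 3 CPM in all 15 libraries; its 2, 11 and 6 counts in the IMR90 control stood against 46, 51 and 35 in set 2 (2.75 ± 0.419, adjusted p = 2.6e-08).

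The laminin-binding alpha chains were higher in set 2, ITGA6 by far the most. ITGA6 (chr2:172427354-172506459), which pairs with ITGB1 or ITGB4, was at 78.9, 80.3 and 81.2 CPM in the IMR90 control, 85.8, 92.7 and 90.9 in libraries labelled set 1, and 352, 352 and 324 in set 2. Set 2 was 4.03-fold above the control (2.01 ± 0.0353, adjusted p = 1.2e-56), and libraries labelled set 1 were 1.16-fold above it (0.22 ± 0.0392, adjusted p = 1.8e-06). In Huh7 the levels overlapped, at 70.8, 65.1 and 64.1 CPM in the control and 69.2, 72 and 66.8 with shTHBD (0.03 ± 0.0738, adjusted p = 0.77). ITGA3 rose from 348 ± 2.61 CPM in the IMR90 control to 381 ± 8.84 in libraries labelled set 1 and 443 ± 5.68 in set 2 (0.18 and 0.26, adjusted p = 3.2e-09 and 3.4e-15). ITGA7, a muscle laminin receptor chain, was at 16.6 ± 0.649 CPM in the control, 14.7 ± 1.64 in libraries labelled set 1, where it was not called (adjusted p = 0.26), and 21.6 ± 0.788 in set 2, where it was higher (0.30 ± 0.0869, adjusted p = 0.00197). In Huh7, ITGA7 fell from 10 ± 0.18 to 7.46 ± 1.13 CPM (−0.46 ± 0.155, adjusted p = 0.0127), a call lost without shTHBD replicate 2 (adjusted p = 0.0799).

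ITGA5, the alpha chain of the main fibronectin receptor, was higher in every comparison with control. It was at 1560 ± 7.07 CPM in the IMR90 control, 2302 ± 7.06 in libraries labelled set 1 and 1783 ± 21.4 in set 2, which was 1.53-fold and 1.08-fold above control (0.62 ± 0.0178 and 0.11 ± 0.0179, adjusted p = 2.1e-42 and 1.2e-07). In Huh7 it rose 1.49-fold, from 512 ± 21.6 to 775 ± 24 CPM (0.57 ± 0.0521, adjusted p = 3.6e-11).

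ITGAV (chr2:186590056-186680901), the shared alpha chain of RGD receptors, was lower in libraries labelled set 1 and higher in set 2. It was at 249, 257 and 262 CPM in the IMR90 control, 197, 198 and 193 in libraries labelled set 1, and 335, 357 and 330 in set 2, with no overlap. Both differences from control were 1.26-fold, in opposite directions (−0.33 ± 0.0299 and 0.33 ± 0.0288, adjusted p = 1.1e-15 and 1.2e-16), and the sets differed 1.58-fold (adjusted p = 9.3e-32). In Huh7, ITGAV fell from 1561, 1636 and 1510 CPM to 1260, 1365 and 1264 (−0.30 ± 0.0533, adjusted p = 1.2e-05).

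To compare different genes, levels were divided by the length of their exons in kilobases. Among the 12 alpha chains that can pair with ITGB1, ITGA5 made up 53.6% ± 0.298 of the summed level per kb in the IMR90 control and ITGA2 22.9% ± 0.0967. In set 2, ITGA2 stood at 11% ± 0.19, and ITGA6 at 11.7% ± 0.37 against 3.05% ± 0.0285 in the control, so that ITGA6, ITGA2, ITGA3 (10.3% ± 0.273) and ITGAV (9.47% ± 0.258) held similar shares behind ITGA5. In Huh7 the leading chain was ITGAV, with 65.9% ± 1.44 in the control and 53.2% ± 1.22 with shTHBD, while ITGA5 held 23.9% ± 1.45 and 35.5% ± 1.62. Levels in the 2 lines are set side by side without a test, since the line, the inducer and the table all differ.

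**Figure D2:**
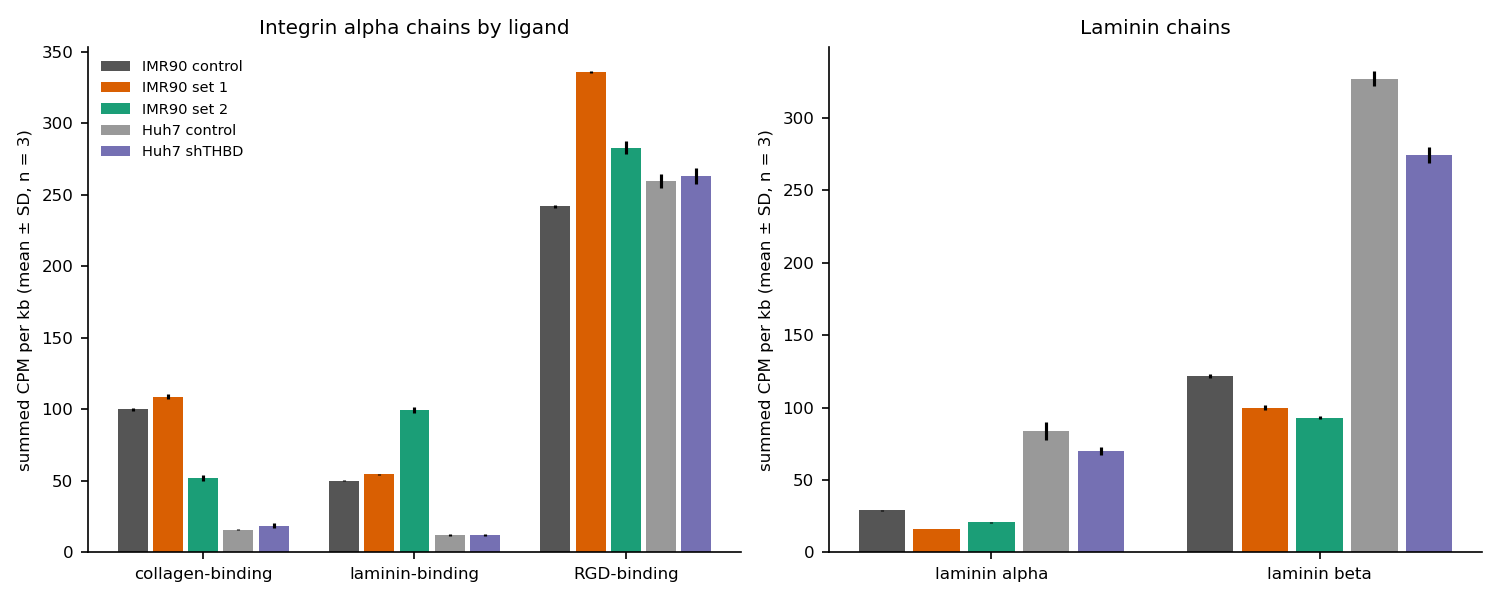
Summed CPM per kb (mean ± SD, n = 3) of integrin alpha chains grouped by ligand (left) and of laminin alpha and beta chains (right) in the 5 groups, with the exon lengths of the Huh7 table used for all libraries. Laminin-binding alpha chains reach 99.7 in IMR90 set 2 against 50.1 in the control, while collagen-binding chains stand at 52 against 100. Laminin beta chains are higher in Huh7 (327 and 274) than in any IMR90 group (93.1 to 122). With the lengths of the IMR90 table, the laminin beta sums are 83.9 in the IMR90 control, 67.6 in set 1 and 62.6 in set 2.

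Among the integrin chains known from blood cells, ITGAX fell in set 2 and ITGAL in Huh7 shTHBD. ITGAX (chr16:31355134-31382999), the alpha chain of a myeloid complement receptor, was at 61.2, 66.4 and 60.2 CPM in the IMR90 control, 67.3, 71.6 and 62.7 in libraries labelled set 1, and 26.8, 22.4 and 22 in set 2. Set 2 was 2.79-fold lower, with no overlap (−1.48 ± 0.0624, adjusted p = 3.6e-33), whereas libraries labelled set 1 overlapped the control (0.16 ± 0.054, adjusted p = 0.0103). The latter call was lost without control replicate 1 or 3 or set 1 replicate 2 (adjusted p = 0.0531, 0.0873 and 0.129). ITGB2, the beta chain that ITGAX pairs with, was at 0.986 CPM or less in every IMR90 library, with 5, 7 and 0 counts in the control. Its 18, 12 and 9 counts in libraries labelled set 1 were called higher by edgeR (1.74 ± 0.641, adjusted p = 0.0181) and not by DESeq2 (0.295). The call was also lost without control replicate 3 (1.11, adjusted p = 0.172) and without set 1 replicate 1 (1.37, adjusted p = 0.137). Control libraries held 0.375 CPM or less, and ITGB2 passed the low-count filter only through shTHBD libraries, those of set 2 included. In a fit of only the control and libraries labelled set 1, ITGB2 did not pass this filter.

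Beside ITGAX, 3 of 9 leukocyte markers had at least 1 CPM in the IMR90 control and 1 of 9 in set 2. Their sum was 7.02 to 7.65 CPM in the control, 13.9 to 15.3 in libraries labelled set 1 and 5.27 to 6.38 in set 2, with CD3E at 0 in all 3 groups; their part in the level of ITGAX was not tested. ITGAE, the alpha chain of an epithelium-binding receptor of lymphocytes, rose in set 2 from 10.3 ± 0.524 to 15.4 ± 1.55 CPM (0.49 ± 0.104, adjusted p = 2.7e-05) and did not pass the test in Huh7 (13.8 ± 2.16 and 14 ± 0.517 CPM, adjusted p = 0.979). ITGAL (chr16:30472719-30523185 in the Huh7 table), the alpha chain of a lymphocyte receptor for ICAM proteins, was at 11.5, 16.2 and 15.4 CPM in the Huh7 control and 7.88, 5.78 and 6.5 with shTHBD. It was 2.18-fold lower, with no overlap (−1.12 ± 0.154, adjusted p = 1.8e-07). The 9 leukocyte markers summed to 11.5 to 12.3 CPM in the Huh7 control and 8.92 to 9.92 with shTHBD. Of 4 tested, 0 were higher and 1 lower (25.9% and 27.3% of all genes). Their part in the fall of ITGAL was not tested. ITGB2, which also pairs with ITGAL, had 13, 3 and 7 counts in the Huh7 control and 4, 12 and 8 with shTHBD.

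ITGA4 and ITGA9 form a pair of closely related receptor chains, and each passed the filter on low counts in 1 line only. ITGA4 was at 14.2 ± 0.234 CPM in the IMR90 control, 13.1 ± 0.843 in libraries labelled set 1 (not called, adjusted p = 0.623) and 25.9 ± 1.09 in set 2, 1.72-fold higher (0.78 ± 0.085, adjusted p = 6.4e-13); it had at most 2 counts in any Huh7 library. CERKL shares 26.4% of the exonic bases of ITGA4. ITGA9 (chr3:37452115-37823507) was at 11.2, 11 and 9.78 CPM in the Huh7 control and 18.5, 19.1 and 23.9 with shTHBD, 1.89-fold higher with no overlap (0.92 ± 0.126, adjusted p = 2.0e-07). It had at most 4 counts in any IMR90 library.

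The laminin chain LAMB3 rose in libraries labelled set 1 and fell in set 2, whereas LAMA3, the alpha chain of the same trimer, did not follow it. LAMB3 (chr1:209614870-209652425) was at 28.2, 23.6 and 25.2 CPM in the control, 62, 65.9 and 61.6 in libraries labelled set 1, and 16.3, 16.8 and 18.6 in set 2. The groups did not overlap. LAMB3 was 2.56-fold above control in libraries labelled set 1 (1.35 ± 0.0641, adjusted p = 1.0e-29) and 1.58-fold below it in set 2 (−0.66 ± 0.0759, adjusted p = 5.2e-12). The sums of 8 epithelial and of 9 endothelial markers stood in the same order of groups: 3.77 to 4.82 and 171 to 178 CPM in the control, 7.07 to 8.17 and 350 to 353 in libraries labelled set 1, and 1.91 to 2.2 and 105 to 113 in set 2. Of the epithelial markers 1, 1 and 0 had at least 1 CPM in these groups, with KRT5 and KRT14 at 0 in all 3; of the endothelial markers 4, 5 and 3 did, with TIE1 alone at 162, 342 and 101 CPM and CDH5 at 0 in the control. Of 5 endothelial markers tested, 2 were higher and 2 lower in libraries labelled set 1 (27.3% and 26.5% of all genes). In set 2, 0 were higher and 2 lower (33.2% and 34.1% of all genes). The sum of 11 hepatocyte markers had the same order, at 15.9 to 17.9, 132 to 142 and 11.7 to 13.3 CPM. SERPINA1 alone was at 16.3, 134 and 8.8 CPM, and 1, 1 and 2 of the 11 had at least 1 CPM. Of 2 hepatocyte markers tested, 2 were higher and 0 lower in libraries labelled set 1 (27.3% and 26.5% of all genes). In set 2, 1 was higher and 1 lower (33.2% and 34.1% of all genes). The part of these markers in the changes of LAMB3 was not tested.

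LAMA3 (chr18:23689453-23956222) was near 1 CPM in the IMR90 control and in libraries labelled set 1, with 13, 28 and 25 counts and 9, 20 and 13 counts. In set 2 it had 76, 95 and 78 counts, or 4 to 4.97 CPM, 3.72-fold above control (1.90 ± 0.264, adjusted p = 2.4e-09). In Huh7, LAMA3 was much more abundant, at 64.4, 61.5 and 63.7 CPM in the control and 105, 111 and 109 with shTHBD, 1.68-fold higher (0.75 ± 0.0674, adjusted p = 2.6e-11). LAMB3 was there at 3.05, 2.7 and 3.36 CPM and at 4.32, 1.82 and 3.13, with no call (−0.00 ± 0.277, adjusted p = 0.992). The 8 epithelial markers summed to 1118 to 1205 CPM in the Huh7 control and 803 to 814 with shTHBD, with 4 and 3 of them at 1 CPM or more. CDH1, the marker that led the sum, went from a mean of 683 to 337 CPM. Of 5 epithelial markers tested, 0 were higher and 2 lower (25.9% and 27.3% of all genes). The part of these markers in the rise of LAMA3 was not tested.

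The promoter windows of LAMA3 and LAMB3 are shown because these chains belong to 1 trimer and moved apart in set 2. Each runs from 250 bases before to 50 bases after a RefSeq transcript start (GRCh38.p14), 5′ to 3′ on the gene's strand. Capitals mark matches to the AP-1 motif (TGANTCA) or the GC box (GGGCGG), searched on both strands. The LAMA3 window, at chr18:23872770-23873069 on the plus strand, lies inside the gene's full span in the IMR90 table, at the start of a shorter transcript. The LAMB3 window is at chr1:209652376-209652675 on the minus strand.
LAMA3: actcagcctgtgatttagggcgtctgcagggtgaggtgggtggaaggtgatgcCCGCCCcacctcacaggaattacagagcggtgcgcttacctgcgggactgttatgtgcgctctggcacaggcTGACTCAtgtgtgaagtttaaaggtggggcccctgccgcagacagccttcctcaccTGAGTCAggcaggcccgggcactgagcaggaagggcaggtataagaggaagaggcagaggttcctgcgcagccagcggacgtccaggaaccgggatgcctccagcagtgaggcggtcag
LAMB3: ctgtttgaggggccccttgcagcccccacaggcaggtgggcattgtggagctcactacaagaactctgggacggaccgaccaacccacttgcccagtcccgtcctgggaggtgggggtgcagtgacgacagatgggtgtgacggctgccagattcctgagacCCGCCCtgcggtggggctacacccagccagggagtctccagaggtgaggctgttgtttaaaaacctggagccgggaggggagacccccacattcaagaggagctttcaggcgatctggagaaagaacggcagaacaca
The LAMA3 window holds 2 AP-1 matches, at bases −125 and −69 from the start, and the LAMB3 window holds none. AP-1 matches were present in 7.76% of 27305 promoter windows of that length and in 2 of the 26 members with a window (LAMA3 and ITGA5). GC-box matches were present in 44.6% of all windows and in 14 of the 26 members. A match is a description of the letters and not of a bound site, and which start these cells use was not measured.

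The other laminin alpha chains set the lines apart. In IMR90, LAMA4, a chain of vessel and mesenchymal basement membranes, made up 85.1% ± 0.481 of the summed laminin alpha level per kb in the control. It fell from 296 ± 4.66 CPM to 157 ± 2.04 in libraries labelled set 1 and 192 ± 3.2 in set 2 (−0.86 ± 0.0296 and −0.70 ± 0.0291, adjusted p = 7.6e-38 and 1.2e-33). In Huh7, LAMA5, a broadly expressed chain, made up 94.7% ± 0.324 of that sum in the control and 89.2% ± 0.673 with shTHBD. It fell there from 1133 ± 90.4 to 889 ± 40.6 CPM (−0.38 ± 0.0544, adjusted p = 4.2e-07). LAMA5 was at 14.2 ± 1.68 CPM in the IMR90 control, and fell in set 2 to 10.9 ± 1.1 (−0.45 ± 0.108, adjusted p = 1.8e-04).

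LAMA2 (chr6:128883138-129516566), the chain of muscle laminin, was at 9.69, 8.3 and 10 CPM in the IMR90 control, 5.59, 5.8 and 5.09 in libraries labelled set 1, and 13.3, 12.1 and 12.3 in set 2. The groups did not overlap. LAMA2 was lower in libraries labelled set 1 (−0.71 ± 0.126, adjusted p = 1.6e-06) and higher in set 2 (0.34 ± 0.112, adjusted p = 0.0056), a call lost without control replicate 2 (adjusted p = 0.0617). The sets differed 2.08-fold (adjusted p = 6.0e-12). LAMA1, a laminin chain of the early embryo, fell from 37.2 ± 1.32 to 25.5 ± 0.318 CPM in libraries labelled set 1 (−0.49 ± 0.065, adjusted p = 8.2e-10). It was at 38.8 ± 0.429 CPM in set 2, which did not pass the test (−0.02 ± 0.0619, adjusted p = 0.756), and had at most 1 count in any Huh7 library.

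LAMB1 (chr7:107923799-108003213), the beta chain of most laminins, was lower in every comparison with control. It was at 546, 545 and 560 CPM in the IMR90 control, 448, 471 and 474 in libraries labelled set 1, and 440, 445 and 421 in set 2. Libraries labelled set 1 were 1.14-fold lower (−0.19 ± 0.0248, adjusted p = 6.3e-10) and set 2 was 1.34-fold lower (−0.42 ± 0.0249, adjusted p = 5.2e-25). In Huh7, LAMB1 went from 1452, 1465 and 1435 CPM to 1095, 1093 and 1145, 1.33-fold lower (−0.41 ± 0.0488, adjusted p = 9.7e-09). LAMB2, its counterpart in adult muscle and kidney laminins, fell from 334 ± 1.5 CPM to 199 ± 2.79 in libraries labelled set 1 and 243 ± 9.61 in set 2 (−0.69 and −0.54, adjusted p = 6.7e-33 and 7.3e-28). In Huh7, LAMB2 was at 1007 ± 47.5 and 927 ± 14.6 CPM (−0.15 ± 0.051, adjusted p = 0.0149); that call was lost under 6 of the alternatives tried, among them upper-quartile scaling (adjusted p = 0.112). LAMB4 stayed under 5 CPM in all 15 libraries.

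LAMC1 (chr1:183023420-183145592) is the common gamma chain. It was at 739, 782 and 757 CPM in the IMR90 control, 879, 859 and 860 in libraries labelled set 1, and 763, 755 and 770 in set 2. Only libraries labelled set 1 stood clear of the control (0.25 ± 0.0216, adjusted p = 3.6e-16). Set 2 overlapped it, and the sign of the difference depended on the scaling: mean CPM on library totals was 762 ± 7.51 in set 2 and 759 ± 21.5 in the control, whereas the TMM-scaled fit called LAMC1 lower in set 2 (−0.08 ± 0.0217, adjusted p = 0.00134) and upper-quartile scaling gave no call (−0.01, adjusted p = 0.712). In Huh7, LAMC1 fell from 495, 473 and 481 to 415, 422 and 397 CPM (−0.26 ± 0.0546, adjusted p = 1.5e-04).

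**Figure D3:**
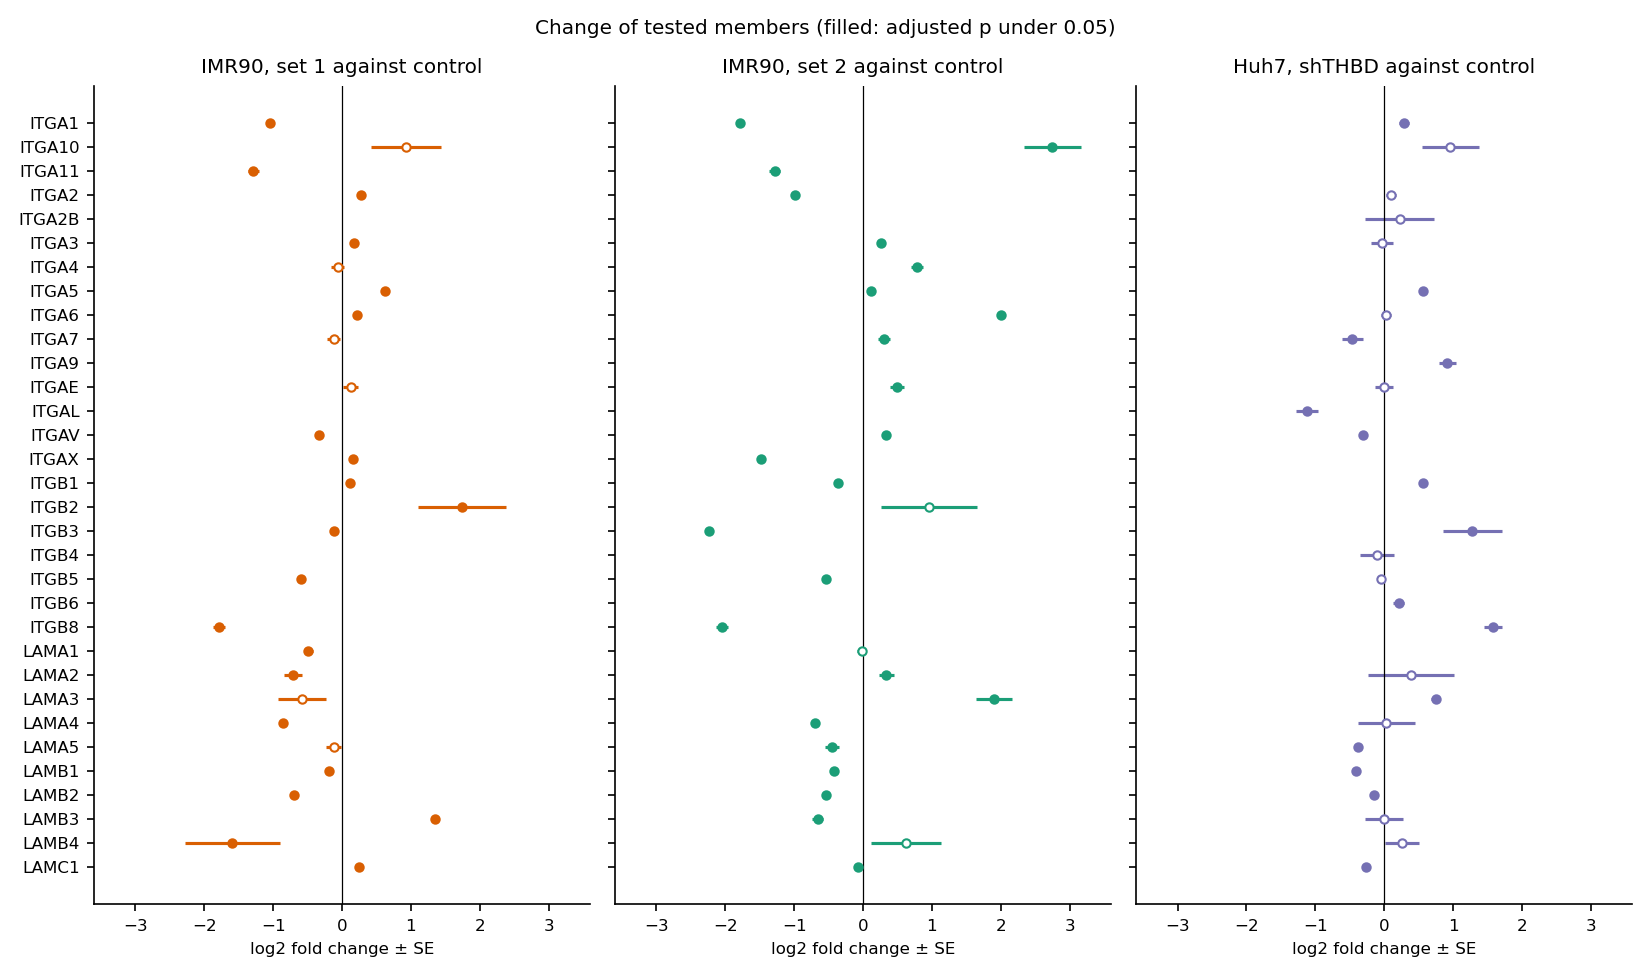
Log2 fold change ± SE of tested members in libraries labelled set 1, in set 2 and in Huh7 shTHBD, each against the control of its line; filled points have an adjusted p under 0.05. ITGB8 stands at −1.79 and −2.05 in IMR90 and at 1.58 in Huh7, and LAMB3 stands on opposite sides of 0 in the IMR90 sets.

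Set 2, in which THBD fell, was then compared with Huh7 shTHBD by testing the difference between the changes in a joint fit of all 15 libraries. Of 34 members tested, the change was more positive in IMR90 set 2 for 8 and more negative for 13, against 44.0% of all 16682 genes called. At least 2-fold differences were found for 3 and 7 members, against 7.34% and 6.38% of all genes. Among the 3, ITGA10 stayed at 2.67 CPM or less in all libraries. Among the 7, ITGA9, ITGA11 and ITGB3 each had at least 1 group mean under 1 CPM. ITGB8 differed by −3.65 ± 0.156 (adjusted p = 2.0e-21) and ITGA1 by −2.10 ± 0.0894 (adjusted p = 1.7e-21), each lower in set 2 and higher in Huh7 shTHBD. ITGB1 and ITGB3 also fell in set 2 and rose in Huh7, with differences of −0.96 ± 0.0486 and −3.55 ± 0.262 (adjusted p = 3.6e-19 and 2.6e-14). ITGAV did the reverse (0.60 ± 0.0595, adjusted p = 5.9e-11). ITGA6 differed by 1.96 ± 0.0749 (adjusted p = 6.1e-23), as it rose in set 2 and was not called in Huh7.

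LAMA3 rose in both lines, by 1.90 and 0.75, and the rises differed (1.12 ± 0.218, adjusted p = 4.9e-05). LAMB1 fell in both lines and the difference did not pass the test (−0.04 ± 0.0497, adjusted p = 0.595). For LAMA5 the difference did not pass the test either (−0.10 ± 0.109, adjusted p = 0.497). The line, the inducer and the count table differ together between these experiments and cannot be told apart. Exon lengths of some members differ between the IMR90 and Huh7 tables. They are 14561 and 6012 bases for ITGB1, 6340 and 4394 for ITGB3, and 18592 and 8072 for LAMB1.

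**Figure D4:**
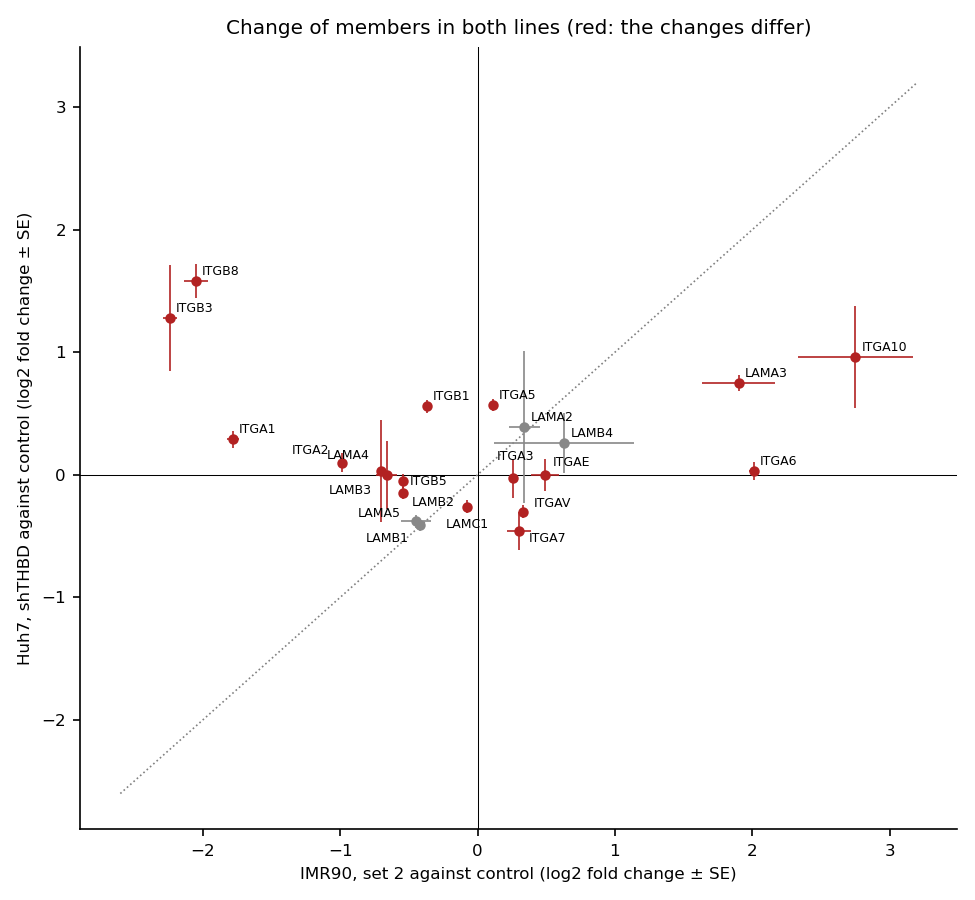
Log2 fold change ± SE of members tested in both lines, IMR90 set 2 (horizontal) against Huh7 shTHBD (vertical); red marks an adjusted p under 0.05 for the difference between the changes, and the dotted line marks equal changes. ITGB8, ITGB3, ITGA1 and ITGB1 lie in the upper left, lower in set 2 and higher in Huh7, while LAMB1 and LAMA5 lie on the dotted line.

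Genes that work with integrins and laminins were counted in the same fits. Of 26 genes of the adhesion complex inside the cell, 12 were higher and 10 lower in libraries labelled set 1 (27.3% and 26.5% of all genes), and 7 and 15 in set 2 (33.2% and 34.1% of all genes). Their median log2 fold changes were 0.02 and −0.15, beside −0.00 and 0.01 over all genes. FERMT1, a kindlin that activates integrins, went from 15 ± 1.46 CPM in the IMR90 control to 28.2 ± 2.74 in libraries labelled set 1 and 4.41 ± 0.245 in set 2 (0.97 and −1.85, adjusted p = 1.5e-15 and 2.2e-23), the order of groups seen for LAMB3. LIMS2, an adaptor of the same complex, rose 6.86-fold in set 2, from 2.87 ± 0.351 to 21 ± 1.48 CPM (2.78 ± 0.133, adjusted p = 5.6e-30). In Huh7, 8 of the 26 were higher and 10 lower, against 25.9% and 27.3% of all genes, with a median of −0.18 beside 0.00 over all genes. ITGB1BP1, which binds the tail of ITGB1, and TNS1, a tensin, both fell (log2 changes of −1.55 ± 0.139 and −1.17 ± 0.103, adjusted p = 2.7e-11 and 1.5e-11).

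Of the 19 tested ligands and basement membrane genes, 6 were higher and 11 lower in libraries labelled set 1 (median −0.12), and 10 and 8 in set 2 (median 0.20). Of all genes, 53.8% and 67.3% were called in these comparisons. NID2, a nidogen that links laminin to collagen, fell 4.33-fold in libraries labelled set 1, from 296 ± 3.85 to 65.7 ± 0.748 CPM (−2.12 ± 0.0369, adjusted p = 7.5e-56), and was at 91.3 ± 6.08 CPM in set 2. CCN1, an integrin-binding matrix protein, rose 4.11-fold in set 2, from 147 ± 1.83 to 641 ± 7.67 CPM (2.04 ± 0.0272, adjusted p = 2.7e-64). In Huh7, 3 were higher and 11 lower (median −0.37), against 53.1% of all genes called. VTN, the ITGAV ligand vitronectin, fell 3.86-fold from 875 ± 33.5 to 231 ± 5.38 CPM (−1.95 ± 0.0535, adjusted p = 2.8e-24), and COL4A1, a basement membrane collagen, went from 10.8 ± 0.85 to 1.84 ± 0.479 CPM (−2.57 ± 0.203, adjusted p = 1.2e-12). VTN is a secreted product of hepatocytes. The hepatocyte marker sum fell over the same comparison, with 9 of 11 markers lower and 2 higher (27.3% and 25.9% of all genes). FGB, the marker that led the sum, went from a mean of 2309 to 2606 CPM. The part of these markers in the fall of VTN was not tested.

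Of 17 membrane partners and other laminin receptors, 9 were lower and 8 were not called in Huh7 shTHBD, where 27.3% of all genes were lower; their median was −0.34. BCAM and DAG1, laminin receptors outside the integrin family, fell 2.59-fold and 2.23-fold, from 232 ± 11.3 to 91.6 ± 5 and from 684 ± 12.9 to 313 ± 0.728 CPM (−1.37 ± 0.0609 and −1.16 ± 0.0527, adjusted p = 5.7e-19 and 1.1e-18). In set 2, 5 of the 17 were higher and 12 lower (median −0.22), against 33.2% and 34.1% of all genes. SDC4, a syndecan co-receptor for fibronectin, rose 2.55-fold from 213 ± 4.46 to 576 ± 4.54 CPM (1.35 ± 0.0265, adjusted p = 1.9e-53). SDC4 was lower than control in libraries labelled set 1 (145 ± 1.79 CPM, −0.50 ± 0.0289, adjusted p = 6.2e-25), where 5 of the 17 were higher and 8 lower (median −0.07), against 27.3% and 26.5% of all genes.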

How the data were processed

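Bulk RNA-seq of 15 libraries was used, as gene counts that the authors deposited in 1 table per cell line. The submitters' processing notes name fastp, STAR, featureCounts and GRCh38. Per the file headers, the IMR90 counts were made with featureCounts 2.0.1 on exons of GENCODE 38, in fragments and without strand, so that sense and antisense reads cannot be told apart; the sources used here do not give such details for the Huh7 table.

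The 9 IMR90 and the 6 Huh7 libraries were fitted separately with edgeR 4.0.16 in R 4.3.3 (filterByExpr, TMM scaling, quasi-likelihood test, Benjamini-Hochberg adjustment over all tested genes). A joint fit of all 15 libraries tested the difference between the IMR90 set 2 and Huh7 effects. CPM was computed on library totals. Levels per kb used the length column of each table, except where the Huh7 lengths are named. Standard errors were taken as the log2 fold change divided by the square root of F and are approximate. The fits were tested on simulated data.

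Values per library are given for called members whose mean reached 10 CPM in some group and whose absolute log2 fold change reached 1, and for ITGB1, ITGAV, LAMB1 and LAMC1; those of other members were added after their values were seen. Of each partner list, up to 2 called genes with the largest change per comparison were eligible. Members and lists were chosen with earlier results of these data known. Alternatives were other scalings and filters, DESeq2 1.42.0, a 2-fold minimum, the replicate number as a block, and leaving out each library. In IMR90, fits of only the 2 groups compared were also run. RefSeq promoter windows were matched by symbol for 26 of 38 members. Some results on single genes are not reported here.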

Additional observations from a re-analysis of the deposited data

Results flagged for a closer look

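The following members are listed because the change in IMR90 set 2 differed from that in Huh7 shTHBD in the joint fit by edgeR (adjusted p under 0.05). Only members that met the rule for values per library were eligible. Values are the set 2 log2 fold change minus the Huh7 one. Called members outside that rule include ITGA5 (−0.49), ITGB5 (−0.51), LAMB2 (−0.42) and ITGA7 (0.73). They also include LAMA4 (−0.75), ITGA10 (1.77), ITGAE (0.47) and ITGA3 (0.27), which each lost the call under some alternatives. The difference was −2.10 for ITGA1, −1.12 for ITGA2 and 1.96 for ITGA6 among the alpha chains that pair with ITGB1. It was 0.60 for ITGAV, −0.96 for ITGB1, −3.65 for ITGB8 and 1.12 for LAMA3. LAMB3 differed by −0.69 (adjusted p = 0.00915), and without Huh7 shTHBD replicate 1 by −0.39 (adjusted p = 0.157). LAMC1 differed by 0.15 (adjusted p = 0.0166), a call lost without IMR90 control replicate 1 or Huh7 shTHBD replicate 2 (adjusted p = 0.0613 and 0.0672).

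For 3 of the listed members the size of the difference rests on levels under 1 CPM. ITGA11 differed by −4.37 ± 0.945, with both Huh7 groups under 1 CPM. ITGA9 differed by −4.67 ± 1.7, with the IMR90 groups under 1 CPM, and its call was lost without IMR90 control replicate 1 or any 1 of the set 2 libraries (adjusted p = 0.0836, 0.0521, 0.0526 and 0.0506). ITGB3 differed by −3.55 ± 0.262, with the Huh7 control under 1 CPM.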

How the results depend on the processing

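Of 2365 values of single members recomputed under 22 alternative settings, 2287 stayed on their side of the threshold, 64 lost a call and 14 gained one. Among values called in the main or the alternative setting, 0 reversed. Direction was not compared where neither setting gave a call. Counting only called members with a change of at least 2-fold left 7 of 22 in libraries labelled set 1, 8 of 25 in set 2, 10 of 25 between the sets, 3 of 16 in Huh7 and 10 of 21 for the difference between lines. Leaving out 1 library at a time gave 19 to 23, 24 to 26, 24 to 26, 13 to 16 and 17 to 21 called members in that order. With the replicate number as a block, 21, 25, 25, 15 and 21 members were called. Fits of only the 2 IMR90 groups compared called 20 members in libraries labelled set 1, 25 in set 2 and 25 between the sets. Of these, 5, 8 and 10 reached 2-fold. Deviations of libraries with the same number correlated at −0.0259 to 0.0225 in IMR90 and −0.0524 to −0.0158 in Huh7. The labels do not say whether these libraries were handled together. Such low values cannot decide it, since shared handling need not leave a shared deviation.

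Upper-quartile scaling moved the median of all genes between the sets from −0.030 to −0.130 and the split of higher and lower calls from 33.9% and 35.6% to 29.3% and 41.4%. LAMB4, a member with few counts, in libraries labelled set 1 (−1.59, adjusted p = 0.0442) lost its call without filtering, with DESeq2, under the block and without each of 8 libraries (adjusted p from 0.0517 to 0.238). At these depths 3 counts are 0.119 to 0.164 CPM.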
